A study of Mus musculus with 16 samples.

Results

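The Bcl-2 family decides at the outer membrane of the mitochondrion whether a cell starts apoptosis. Pro-survival members (Bcl2, Bcl2l1 for BCL-XL, Mcl1 and the Bcl2a1 genes for A1) hold back the effectors Bax and Bak1, which form pores when free. BH3-only members (Bcl2l11 for BIM, Bid and Pmaip1 for NOXA) bind the pro-survival proteins or switch the effectors on. In T cells the family is known for keeping naive and memory cells alive with cytokine signals and for removing effector cells when a response ends. The genes described here are 10 members, 5 pro-survival genes and 5 pro-death genes, of the 16243 genes present in all 9 deposited CD8+ T cell matrices. They were chosen by function, with a rule that uses no measured value but was set with earlier results of these data known, and all 10 passed the filter on low counts.

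The study followed C57BL/6 (B6) recipients that accept a DBA/2J kidney allograft without immunosuppression, at 1, 3 and 24 weeks after transplantation, and set them beside DBA/2J recipients rejecting a B6 kidney at 1 week and beside naive spleen. Kidneys were digested with collagenase and DNase, whereas spleens were ground and treated to lyse red blood cells. Tissue and preparation therefore cannot be told apart between graft and spleen. Viable CD45+ cells were sorted from graft and recipient spleen and profiled by 3′ droplet single-cell RNA sequencing. It counts each captured mRNA by a unique molecular identifier (UMI). The labels give strain C57BL/6J and genotype WT for every sample, whereas the study's text places the rejecting T cells in DBA/2J recipients. No age is given for the animals, and the study used male mice. Strain of the T cells and rejection therefore cannot be told apart. Cells were called CD8+ T cells by the authors, and here only cells with at least 1 UMI of Cd8a or Cd8b1 were kept, 56585 of 72639. Their UMIs were summed for each of 32 library tags and expressed as counts per 1000000 UMIs (CPM), so that a level is a share of the mRNA counted in CD8+ T cells. There were 5 tags in naive spleen, 3, 5 and 3 tags in both graft and spleen of accepted mice at 1, 3 and 24 weeks, 3 tags in rejecting spleen and 2 tags in rejecting graft. Each tag was taken as 1 library and, for accepted mice, as 1 mouse, and p-values measure only the spread between tags where tags are not separate animals.

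The libraries were uneven. Their CD8+ cells held between 153266 and 22782080 UMIs, and the second rejecting spleen library had only 56 cells. No pair of libraries among 496 shared more than 5% of its barcode sequences. Cells with a Cd8a or Cd8b1 UMI made up 83.5% to 90.1% of the matrix at 1 week and 96.3% to 97.0% at 3 weeks in the graft, and 41.9% to 49.2% and 44.0% to 51.8% in the spleen. These were accepted mice. At 24 weeks the libraries labelled graft had 46.2% to 49.2% and the libraries labelled spleen 93.4% to 95.3%, the reverse of these earlier times. Other spleens were also high, with 95.0% to 97.6% in naive spleen and 100% in rejecting spleen. The rejecting graft had 76.6% to 78.1%. Of 10 listed genes of kidney parenchyma 3 genes (Slc34a1, Gpx3 and Fxyd2) were measured in all matrices. Their summed level was 5.06 to 8.57 CPM in the graft at 3 weeks, 2.19 to 4.10 CPM in the spleen label and 0 to 0.474 CPM in the graft label at 24 weeks. The 24-week libraries are therefore named by their label throughout. Summed levels of the 5 CD8 T cell markers (Cd8a, Cd8b1, Cd3e, Cd3d and Trac) were at least 2712 CPM in every library. Cells were kept by Cd8a or Cd8b1, so this sum is partly set by that choice. Cd4 stayed at or below 18.6 CPM, and the 4 B cell markers reached 839 CPM in the spleen at 1 week but at most 26.4 CPM in the grafts at 1 and 3 weeks.

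Bcl2, the founding pro-survival member that naive and memory T cells depend on, had the largest fold of the 10 members between 1 and 3 weeks in the accepted graft. In the accepted graft at 1 week it stood at 135, 133 and 89.9 CPM in the 3 libraries. In the accepted graft at 3 weeks it stood at 889, 768, 798, 884 and 867 CPM in the 5 libraries, all above every library of 1 week. Bcl2 was 7.06-fold higher at 3 weeks (log2 2.82 ± 0.22, SE, adjusted p = 1.66e-13, edgeR). Recipient spleen moved the same way by less, from 243, 248 and 297 CPM at 1 week to 567, 488, 483, 489 and 507 CPM at 3 weeks (log2 0.95 ± 0.20, SE, adjusted p = 2.76e-04). Naive spleen held 373, 264, 348, 301 and 280.1 CPM, which overlapped the spleen of 1 week. The graft was thus below the spleen at 1 week (log2 -1.14 ± 0.22, SE, adjusted p = 4.89e-05) and above it at 3 weeks (log2 0.73 ± 0.17, SE, adjusted p = 3.25e-04). Libraries labelled graft at 24 weeks held 257, 234 and 199 CPM and those labelled spleen 576, 492 and 603 CPM. By group mean Bcl2 was highest in rejecting spleen (857 CPM) and the accepted graft at 3 weeks (841 CPM), which overlapped. A chain of overlapping groups followed, from the 24-week spleen label (557 CPM) down to the 24-week graft label (230.1 CPM), and the accepted graft at 1 week stood alone at the bottom (119 CPM).

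**Figure D1:**
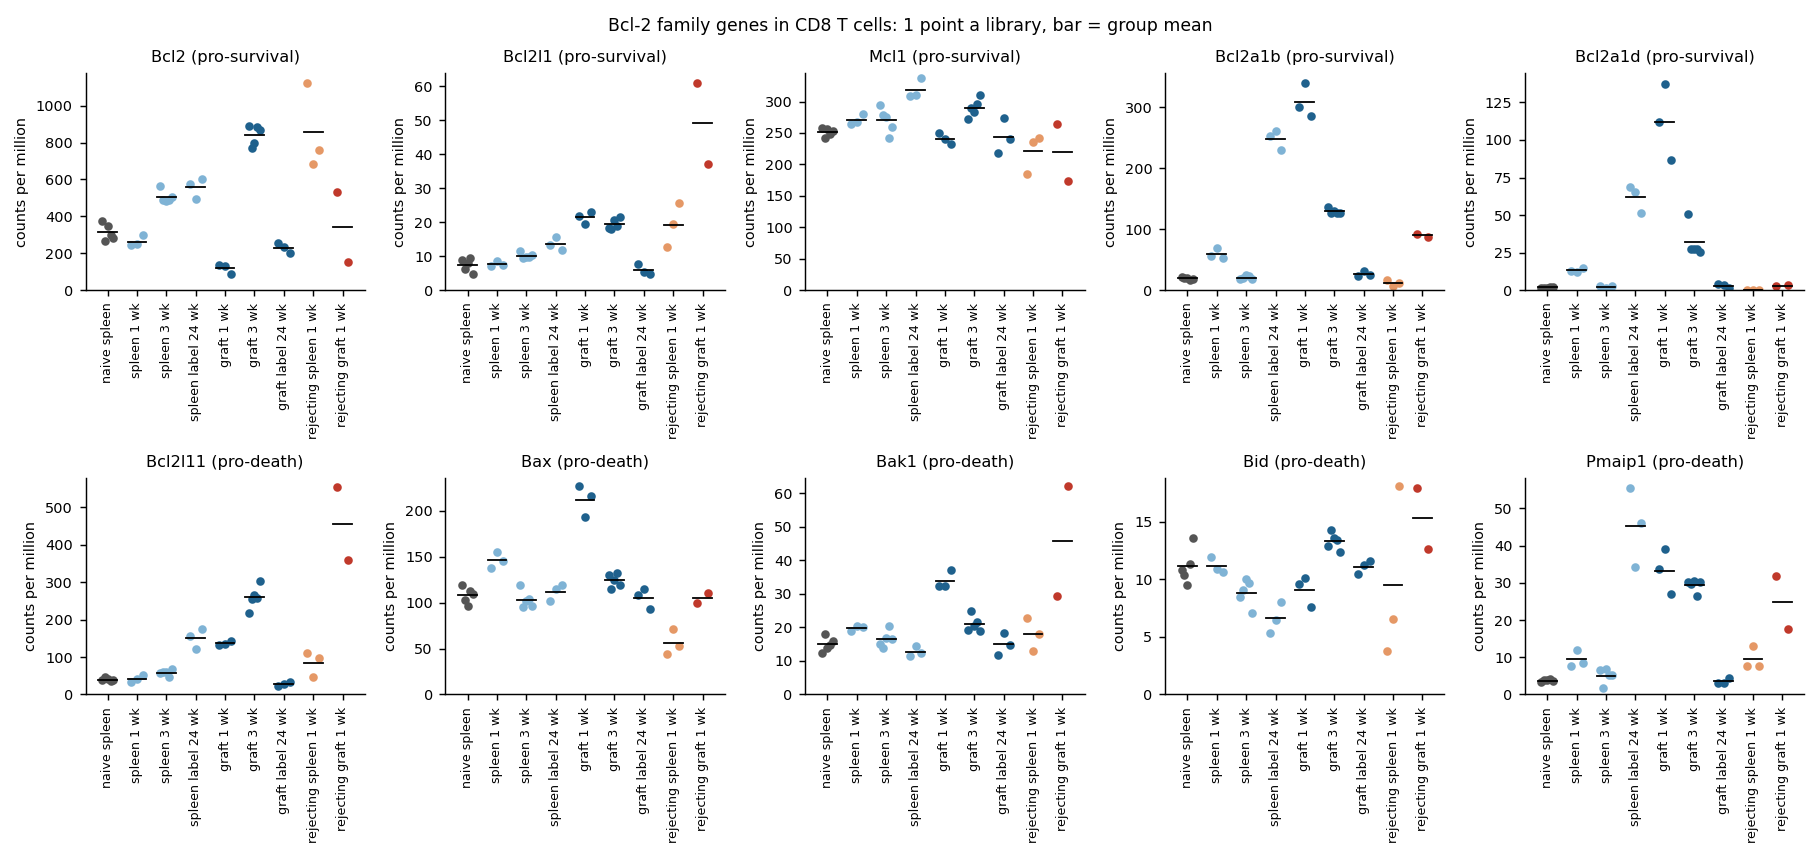
CPM of the 10 Bcl-2 family genes (y axis, linear from 0) in CD8+ T cells of the 9 groups (x axis), with 1 point for each library and a bar at the group mean. Bcl2 is lowest in the accepted graft at 1 week, with a mean of 119 CPM, and has a mean of 841 CPM at 3 weeks, while Bcl2a1b and Bcl2a1d are higher at 1 than at 3 weeks and Mcl1 stays between 174 and 337 CPM in every library.

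Bcl2 has 166940 bases of intron in GENCODE release M21 (GRCm38), more than 95.5% of the matched shared genes, at chr1:106538178-106714274 on the minus strand. In these data the level of long-intron genes as a class differed between groups. Most differences of Bcl2 are therefore also given with that shift taken out, while its levels in CPM are not. Genes were split into 10 groups by total intron length. In the group with the longest introns the median gene deviated by -0.63 log2 from its mean over groups in the accepted graft at 1 week, by 0.15 at 3 weeks, by 1.11 in rejecting spleen and by 1.27 in rejecting graft. With the shift of each length group taken out, the rise of Bcl2 from 1 to 3 weeks in the graft was log2 2.05 ± 0.20 (SE, adjusted p = 1.07e-10), and graft against spleen was -1.11 ± 0.21 at 1 week (adjusted p = 5.55e-05) and 0.42 ± 0.16 at 3 weeks (adjusted p = 0.0296). All 3 remained past the threshold there, but with totals without mitochondrial and ribosomal genes the graft against spleen difference at 3 weeks was 0.37 and not past it (adjusted p = 0.0649). With the intron-length shift taken out, the rise in spleen from 1 to 3 weeks was 0.52 ± 0.19 (SE, adjusted p = 0.0333). The 24-week graft label differed from the graft at 3 weeks by -1.12 ± 0.20 (adjusted p = 1.10e-05) and from the spleen label by -0.94 ± 0.22 (adjusted p = 5.13e-04). Rejecting graft against rejecting spleen was -1.57 ± 0.26 (adjusted p = 1.43e-05), and spleen at 1 week against naive was 0.13 ± 0.19 (adjusted p = 0.615). Reads in introns cannot be separated from spliced mRNA in these tables, and D630008O14Rik on the other strand and Gm37053 and Mir3473f on the same strand overlap Bcl2, so that counts there are uncertain.

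**Figure D2:**
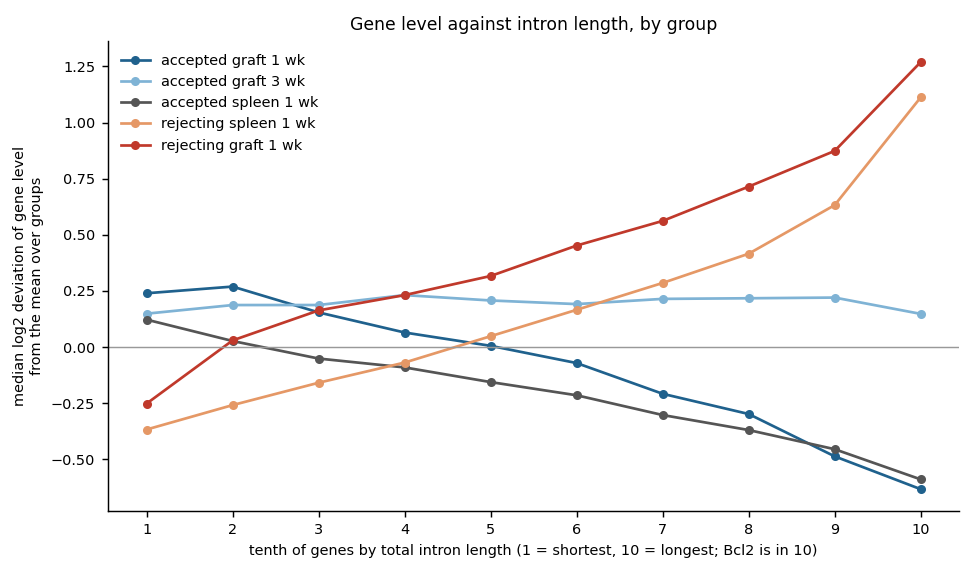
Median log2 deviation of genes from their mean over the 9 groups (y axis) against the group of genes by total intron length (x axis, 10 the longest), for 5 groups of libraries. In the longest group, which holds Bcl2, the accepted graft at 1 week lies at -0.63 and the rejecting graft at 1.27.

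Between 1 and 3 weeks in the graft the A1 genes moved opposite to Bcl2. A1 is a short-lived pro-survival protein known as an early target of antigen receptor and NF-kappaB signals. Bcl2a1b, at chr9:89199209-89207827 on the plus strand, stood at 301, 339 and 285 CPM in the accepted graft at 1 week and at 137, 127, 129, 126 and 127 CPM at 3 weeks, without overlap (log2 -1.25 ± 0.09, SE, adjusted p = 1.10e-14). Bcl2a1d, at chr9:88723285-88731914 on the minus strand, stood at 112, 138 and 86.3 CPM at 1 week and at 50.9, 27.7, 27.3, 27.6 and 25.6 CPM at 3 weeks (log2 -1.81 ± 0.16, SE, adjusted p = 9.13e-12). At 3 weeks 1 library, with 50.9 CPM, stood above the other 4, which lay within 25.6 to 27.7 CPM. In recipient spleen Bcl2a1b rose 3.03-fold from naive to 1 week (log2 1.60 ± 0.11, SE, adjusted p = 9.57e-14) and had fallen again at 3 weeks, where it lay at 18.7, 19.6, 24.0, 22.9 and 17.5 CPM against 20.8, 20.5, 20.5, 17.3 and 18.2 CPM in naive spleen. The graft exceeded the spleen 5.24-fold at 1 week (adjusted p = 2.43e-19) and 6.31-fold at 3 weeks (adjusted p = 1.79e-22) for Bcl2a1b. In the order of group means the accepted graft at 1 week (308 CPM) was highest, followed by the 24-week spleen label, the graft at 3 weeks, the rejecting graft and the spleen at 1 week, with no overlap between neighbours, while the 24-week graft label, spleen at 3 weeks and naive spleen overlapped.

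The Bcl2a1 genes are near-identical copies on chromosome 9, Gm29094 overlaps Bcl2a1b on the same strand and Gm10634 overlaps Bcl2a1d on the other, and the counts of single copies are uncertain for that reason. In the last 300 bases of the transcript, where 3′ reads fall, Bcl2a1b and Bcl2a1d share 296 of 298 aligned bases and Bcl2a1a and Bcl2a1d share 298 of 300. Their promoters show the same likeness. RefSeq sequences of the GRCm38.p6 build, from 250 bases before to 50 bases after the annotated start, are shown 5′ to 3′ on the gene's strand. They are given because Bcl2a1b and Bcl2a1d both fell between 1 and 3 weeks in the graft. Bcl2a1a had means of 0.963 and 0.854 CPM at these times. Capitals mark bases that differ from, or are missing in, at least 1 of the other 2 copies. Ends that the window of only 1 copy holds are in lower case. The windows are chr9:88956670-88956969 on the plus strand for Bcl2a1a, chr9:89199023-89199322 on the plus strand for Bcl2a1b and chr9:88731801-88732100 on the minus strand for Bcl2a1d.
Bcl2a1a: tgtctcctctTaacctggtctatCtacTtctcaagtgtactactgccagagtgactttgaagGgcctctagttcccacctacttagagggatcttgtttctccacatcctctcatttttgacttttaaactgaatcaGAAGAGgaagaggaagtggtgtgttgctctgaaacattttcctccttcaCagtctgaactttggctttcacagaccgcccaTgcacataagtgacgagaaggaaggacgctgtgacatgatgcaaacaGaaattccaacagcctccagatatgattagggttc
Bcl2a1b: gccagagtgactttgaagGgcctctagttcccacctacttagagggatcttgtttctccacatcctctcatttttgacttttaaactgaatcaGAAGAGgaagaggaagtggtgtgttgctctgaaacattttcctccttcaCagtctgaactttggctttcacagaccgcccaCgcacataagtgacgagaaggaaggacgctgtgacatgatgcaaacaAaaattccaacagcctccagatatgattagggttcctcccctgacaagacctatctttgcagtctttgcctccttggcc
Bcl2a1d: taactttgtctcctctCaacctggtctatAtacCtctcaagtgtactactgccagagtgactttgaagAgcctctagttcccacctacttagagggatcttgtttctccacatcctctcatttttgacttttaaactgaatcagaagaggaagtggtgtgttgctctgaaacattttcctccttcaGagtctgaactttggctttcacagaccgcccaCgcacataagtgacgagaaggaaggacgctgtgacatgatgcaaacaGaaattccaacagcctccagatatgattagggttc
Within the stretch that each pair shares, Bcl2a1a and Bcl2a1b were identical at 254 of 256 bases and Bcl2a1b and Bcl2a1d at 247 of 250, beside a 6-base stretch missing in Bcl2a1d. Letters of a kappaB-type motif, GGG, any 2 bases, TT, any base and CC on either strand, were found in none of the Bcl2a1b and Bcl2a1d windows, in 1 of 2 windows of Bcl2l11, 1 of 3 of Bcl2l1 and the window of Mcl1, against 4.79% of all 32851 promoter windows. GTAAACA, a FOXO-type motif, was in 1 window of Bcl2l11 and 3.65% of all windows. TTCNNNGAA, a STAT-type motif, was in none of the 12 member windows, which cover 9 members and not Pmaip1, and in 8.30% of all. A missing match says only that these letters are not in these windows.

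Counted together, the 4 Bcl2a1 genes held 415, 479 and 373 CPM in the accepted graft at 1 week and 189, 156, 159, 154 and 153 CPM at 3 weeks (log2 -1.38 ± 0.09, SE, adjusted p = 3.70e-15 in a fit with the copies summed). The sum does not depend on how counted reads were split, but reads that fit several copies equally can be left uncounted, and their number was not tested. Cells with myeloid markers held more A1 than CD8+ cells in naive spleen, at 189 against 21.3 CPM for the summed genes, and cells with B cell markers held 3.50 to 4.28 times the CD8+ level in 5 of 5 libraries. The 5 myeloid markers summed to 310 to 395 CPM in the CD8+ cells of the graft at 1 week and 477 to 854 CPM at 3 weeks. The differences of Bcl2a1b and Bcl2a1d between 3 and 1 weeks stayed past the threshold without cells that had a Cd4, myeloid or B cell UMI. Such cells were 49.8% to 56.9% of CD8+ cells at 1 week and 53.6% to 59.4% at 3 weeks. Naive spleen held 22.6, 21.9, 22.5, 19.4 and 20.3 CPM and spleen at 1 week 69.5, 81.9 and 66.9 CPM. In naive and accepted mice Bcl2a1b took 70.9% to 97.8% of the sum in each library, Bcl2a1d nearly all the rest, and Bcl2a1a no more than 2.22%. The split was another one in grafts of rejecting DBA/2J recipients. There Bcl2a1d stood at 2.57 and 3.45 CPM and Bcl2a1a at 16.4 and 16.5 CPM, which is 15.0% ± 0.441 (SD, n = 2) of the sum. In rejecting spleen, where the sum was low, the share of Bcl2a1a ran from 0% to 20% over the 3 libraries. In the accepted graft at 1 week Bcl2a1a stood at 1.19, 0.688 and 1.01 CPM. Myeloid cells of these tissues were set beside each other in the same way. Cells with UMIs of at least 2 myeloid marker genes and of no listed T or B cell gene held, in naive B6 spleen, a mean of 50.8 CPM of Bcl2a1d and 28.8 CPM of Bcl2a1a, whereas those of the rejecting graft held 2.53 and 36.0 CPM. No Bcl2a1d UMI was found among 1608967 UMIs of rejecting spleen, which allows up to 1.86 CPM over the group by counting error alone. Strain, rejection and read assignment cannot be told apart for single copies. Tissue and preparation also differ between the myeloid cells of naive spleen and of the rejecting graft, and their kinds were not compared.

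**Figure D3:**
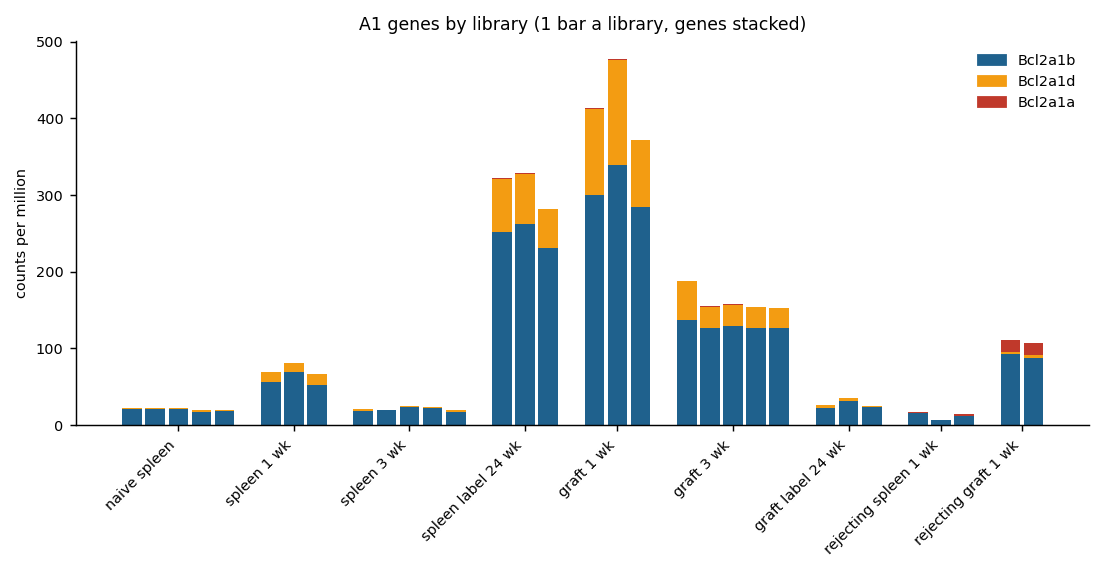
CPM of Bcl2a1b, Bcl2a1d and Bcl2a1a stacked (y axis), with 1 bar for each library in the 9 groups (x axis). In the accepted graft at 1 week the summed copies reach 373 to 479 CPM with Bcl2a1c included, a copy not stacked here. The mean of Bcl2a1c was 0.772 CPM in that group. Bcl2a1a is seen as a part of the bar in the 2 rejecting grafts, at 16.4 and 16.5 CPM.

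Bcl2l1, the gene of BCL-XL (chr2:152780668-152831728, minus strand), was low in all groups and, at 1 and 3 weeks, higher in graft than in spleen. It stood at 21.7, 19.5 and 23.0 CPM in the accepted graft at 1 week and 18.2, 18.0, 20.7, 18.9 and 21.5 CPM at 3 weeks, with overlap. Spleen held 7.17, 8.46 and 7.48 and 11.5, 9.43, 9.61, 9.66 and 10.4 CPM at these times, below the grafts (log2 1.48 ± 0.18, SE, adjusted p = 1.24e-08 at 1 week and 0.94 ± 0.16, SE, adjusted p = 4.29e-06 at 3 weeks). Between 3 and 1 weeks in the graft the difference was log2 -0.14 ± 0.13 (SE, adjusted p = 0.353). It passed the threshold with TMM factors, at -0.50 (adjusted p = 0.00109), and with the intron-length shift taken out, at -0.66 (adjusted p = 3.80e-05).

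Mcl1 (chr3:95658788-95663176, plus strand), whose protein turns over quickly and which T cells need at every stage, was the steadiest member. Its group means ran from 219 to 319 CPM, and each group overlapped its neighbour in the order of means. In the accepted graft it was at 249.8, 239.7 and 232 CPM at 1 week and 271, 289.6, 283, 296 and 309.8 CPM at 3 weeks, a difference of log2 0.27 ± 0.09 (SE, adjusted p = 0.0106). The sign of this difference depended on the scaling, being -0.083 with DESeq2 (adjusted p = 0.419) and -0.089 with TMM factors (adjusted p = 0.385). With totals without mitochondrial and ribosomal genes it was 0.19 (adjusted p = 0.0667) and with cells thinned to 1000 UMIs 0.16 (adjusted p = 0.2). Without cells that held a UMI of the dividing list it was 0.07 (adjusted p = 0.476).

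Among pro-death genes Bcl2l11 (BIM, which can bind every pro-survival member) followed the graft. It lies at chr2:128126038-128162547 on the plus strand and stood at 131, 136 and 144 CPM in the accepted graft at 1 week and 219, 256, 266, 258 and 303 CPM at 3 weeks, where every library was above 1 week (log2 0.93 ± 0.13, SE, adjusted p = 1.31e-07). Taking out the intron-length shift left log2 0.50 ± 0.13 (SE, adjusted p = 0.00104). Spleen held 34.2, 40.1 and 50.7 CPM at 1 week and 58.4, 59.9, 59.3, 45.8 and 67.6 CPM at 3 weeks, 3.26-fold and 4.46-fold below the graft of the same week (adjusted p = 2.87e-11 and 6.04e-17). Naive spleen, at 38.5, 45.5, 40.3, 35.9 and 38.5 CPM, overlapped the spleen of 1 week. In the order of group means the rejecting graft (457 CPM) and the accepted graft at 3 weeks (260.3 CPM) each stood apart from the next, the 24-week spleen label and the graft at 1 week overlapped, and the other spleens formed an overlapping chain above the 24-week graft label (27.9 CPM).

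Bax (chr7:45461697-45466898, minus strand) and Bak1 (chr17:27019810-27029009, minus strand), the pore-forming effectors, were higher early in the accepted graft. Gm45808 overlaps Bax on the same strand, so that counts of Bax are uncertain there. Ggnbp1 overlaps Bak1 on the other strand only. Bax was at 227, 193 and 216 CPM in the accepted graft at 1 week and 131, 114, 125, 132 and 119.7 CPM at 3 weeks (log2 -0.77 ± 0.09, SE, adjusted p = 9.00e-10). Bak1 was at 32.2, 32.5 and 37.2 CPM at 1 week and 19.2, 24.7, 20.3, 21.4 and 19.0 CPM at 3 weeks (log2 -0.70 ± 0.13, SE, adjusted p = 1.30e-05). Neither overlapped between the 2 times. Spleen at 1 week, with Bax at 138, 156 and 146 CPM and Bak1 at 18.9, 20.3 and 20.1 CPM, lay below the graft of that week (adjusted p = 2.88e-05 and 9.69e-05) and above naive spleen, at 119, 103, 96.0, 112 and 109.7 CPM for Bax and 12.4, 18.1, 13.8, 14.7 and 16.1 CPM for Bak1 (adjusted p = 1.61e-04 and 0.0388). The call of Bak1 against naive spleen was lost without any 1 of the 3 libraries of spleen at 1 week, or without naive library 1, 3 or 4, at log2 0.34 to 0.44. It was also lost without cells that held a UMI of the dividing list, at 0.24 (adjusted p = 0.243), without cells with a Cd4, myeloid or B cell UMI, at 0.30 (adjusted p = 0.224), with cells thinned to 1000 UMIs, at 0.32 (adjusted p = 0.287), and with totals without mitochondrial and ribosomal genes, at 0.33 (adjusted p = 0.0883). At 3 weeks graft exceeded spleen by log2 0.27 ± 0.08 for Bax and 0.36 ± 0.15 for Bak1 (SE, adjusted p = 0.0058 and 0.0398). These were lost with TMM factors, at -0.0036 (adjusted p = 0.976) and 0.09 (adjusted p = 0.649). They were lost too with DESeq2, with totals without mitochondrial and ribosomal genes, with the intron-length shift taken out and without cells with a Cd4, myeloid or B cell UMI, at -0.093 to 0.21 for Bax and 0.00051 to 0.33 for Bak1, which was also lost with thinned cells (0.30). The call of Bak1 was also lost without any 1 of 6 libraries (spleen 1, 2, 3 and 5, graft 2 and 4), at log2 0.29 to 0.37.

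Pmaip1 (NOXA, which binds MCL1 and A1) was higher in graft than in spleen at 1 and 3 weeks, and Bid, which links death receptors to mitochondria (chr6:120891930-120916853, minus strand, overlapping Bcl2l13, Gm17812 and Gm44260), was low throughout. Pmaip1 was at 33.8, 39.2 and 26.9 CPM in the graft at 1 week and 30.3, 29.7, 30.6, 26.4 and 30.4 CPM at 3 weeks, with overlap (adjusted p = 0.293). It passed as lower at 3 weeks with TMM factors, at -0.53 (adjusted p = 0.00108), and with DESeq2, at -0.53 (adjusted p = 0.00666). Spleen held 7.72, 12 and 8.43 CPM and 6.45, 1.81, 6.81, 5.09 and 5.20 CPM at these times and naive spleen 3.32, 3.75, 3.75, 4.13 and 3.48 CPM. The graft exceeded the spleen 3.58-fold at 1 week and 5.82-fold at 3 weeks (adjusted p = 6.55e-10 and 2.73e-13). Bid was at 9.62, 10.2 and 7.59 CPM in the graft at 1 week and 12.9, 14.3, 13.6, 13.4 and 12.4 CPM at 3 weeks (log2 0.56 ± 0.14, SE, adjusted p = 8.61e-04), a call lost with TMM factors (0.20, adjusted p = 0.218), DESeq2 (0.21, adjusted p = 0.194) and the intron-length shift taken out (0.29, adjusted p = 0.0687).

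Several members are still to be placed between graft and spleen. At 1 week Bcl2a1d was higher in the graft by log2 3.07 ± 0.22 (adjusted p = 1.06e-13), with SE after each value, while Mcl1 differed by -0.17 ± 0.10 (adjusted p = 0.176) and Bid by -0.30 ± 0.17 (adjusted p = 0.152), neither past the threshold. Both depended on the processing. Mcl1 passed as lower in the graft with TMM factors (-0.27), DESeq2 (-0.23), totals without mitochondrial and ribosomal genes (-0.39), the intron-length shift taken out (-0.29) or all cells of the matrix (-0.29). Bid passed as lower in the last 3 of these settings (-0.52, -0.44 and -0.46). At 3 weeks Bcl2a1d was higher by 4.14 ± 0.31 (adjusted p = 1.28e-13) and Bid by 0.58 ± 0.16 (adjusted p = 0.00223), and Mcl1 differed by 0.10 ± 0.08 (adjusted p = 0.295). The call of Bid was lost with TMM factors, at 0.32 (adjusted p = 0.102), DESeq2, at 0.33 (adjusted p = 0.108), the intron-length shift taken out, at 0.31 (adjusted p = 0.114), totals without mitochondrial and ribosomal genes, at 0.23 (adjusted p = 0.241), thinned cells, at 0.47 (adjusted p = 0.228), and without cells with a Cd4, myeloid or B cell UMI, at 0.51 (adjusted p = 0.0556). Mcl1 passed as higher without the latter cells (0.21) and as lower with totals without mitochondrial and ribosomal genes (-0.26). Myeloid markers moved with these gaps. They summed to 115 to 133 CPM in the CD8+ cells of spleen and 310 to 395 CPM in those of the graft at 1 week, and to 62.1 to 84.6 and 477 to 854 CPM at 3 weeks. In naive spleen cells with myeloid markers held 5.60 to 13.8 times the CD8+ level of the summed Bcl2a1 genes and 10.8 to 21.6 times that of Pmaip1. Without cells that had a Cd4, myeloid or B cell UMI, Bcl2a1b, Bcl2a1d and Pmaip1 stayed past the threshold as higher in the graft at both times. The part of free myeloid RNA was not tested.

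In recipient spleen the A1 genes moved most. Against naive spleen at 1 week Bcl2a1d was higher by log2 2.91 ± 0.34 (adjusted p = 1.30e-08) and Pmaip1 by 1.32 ± 0.25 (adjusted p = 4.02e-05), with SE. Bcl2 differed by -0.25 ± 0.20 (adjusted p = 0.298), Bcl2l1 by 0.01 ± 0.20 (adjusted p = 0.987), Mcl1 by 0.11 ± 0.09 (adjusted p = 0.366), Bcl2l11 by 0.08 ± 0.15 (adjusted p = 0.687) and Bid by 0.00 ± 0.17 (adjusted p = 1), none past the threshold. Mcl1 passed as higher with TMM factors, at 0.29 (adjusted p = 0.00957), with DESeq2, at 0.27 (adjusted p = 0.00648), and with all cells of the matrix, at 0.24 (adjusted p = 0.0245). Bcl2 passed as lower in a fit of these 2 groups alone, at -0.25 (adjusted p = 0.0436). The call of Pmaip1 was lost with cells thinned to 1000 UMIs (0.31, adjusted p = 0.585). From 1 to 3 weeks Bcl2a1b fell by 1.52 ± 0.12 (adjusted p = 6.51e-12), Bcl2a1d by 2.88 ± 0.39 (adjusted p = 4.14e-07), Bax by 0.50 ± 0.09 (adjusted p = 5.50e-05) and Pmaip1 by 0.87 ± 0.26 (adjusted p = 0.0079) on the log2 scale, and Bcl2l11 rose by 0.47 ± 0.15 (adjusted p = 0.0134). Bcl2l1 differed by 0.41 ± 0.21 (adjusted p = 0.115), Mcl1 by -0.00 ± 0.10 (adjusted p = 0.987), Bak1 by -0.28 ± 0.18 (adjusted p = 0.211) and Bid by -0.33 ± 0.19 (adjusted p = 0.174). Bid passed as lower with all cells of the matrix, at -0.65 (adjusted p = 9.73e-04), and with TMM factors, at -0.51 (adjusted p = 0.0313), where Bak1 did too, at -0.46 (adjusted p = 0.0344). The call of Bcl2l11 was lost with TMM factors, at 0.29 (adjusted p = 0.142), DESeq2, at 0.33 (adjusted p = 0.122), the intron-length shift taken out, at 0.26 (adjusted p = 0.207), and thinned cells, at 0.45 (adjusted p = 0.0664). It was also lost without the first library of 1 week (0.35), and that of Pmaip1 without the second (-0.68). With cells thinned to 1000 UMIs Pmaip1 turned to 0.17. The dividing-cell markers summed to 257 to 655 CPM in spleen at 1 week, 29.6 to 41.0 CPM at 3 weeks and 16.9 to 31.0 CPM in naive spleen, and the B cell markers to 395 to 839, 103 to 286 and 27.9 to 55.6 CPM. The handling and stress genes summed to 885 to 2085 CPM in spleen at 1 week and 450.2 to 594 CPM in naive spleen, and the neutrophil markers to 41.4 to 82.6 CPM and 0 to 48.9 CPM, and the part of either was not tested. Without cells that held a UMI of the dividing list, and without cells with a Cd4, myeloid or B cell UMI, Pmaip1 lost its call between 3 and 1 weeks, at -0.66 (adjusted p = 0.0684) and -0.66 (adjusted p = 0.145), as Bak1 did between 1 week and naive spleen. The other calls of members in these 2 comparisons held in both settings.

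Read as counts, 8 of 10 members passed the threshold between 3 and 1 weeks in the graft, 4 higher and 4 lower, against 70.4% of the 12247 genes tested (50.1% higher, 20.3% lower). The share of members is near that of all genes. The median log2 change was -0.14 over the 5 pro-survival genes, -0.17 over the 5 pro-death genes and 0.40 over all genes tested. By plain totals 6141 genes were higher and 2487 lower, and by TMM factors 4100 and 3973, with the median gene above 20 CPM moving from 0.29 to -0.07. The 8 handling and stress genes summed to 1322 to 1817 CPM in the graft at 1 week and 3123 to 3725 CPM at 3 weeks, where spleen held 984 to 1281 CPM, and their part in these counts was not tested. Between graft and spleen at 1 week 8 members passed, 7 higher in the graft and 1 lower, against 49.5% of genes tested (29.2% higher, 20.3% lower). The medians were 1.48 for pro-survival, 0.78 for pro-death and 0.07 for all genes tested. Calls over all genes were 3580 higher and 2484 lower by plain totals and 3045 and 3078 by TMM factors. At 3 weeks 9 members passed, all higher in the graft, against 59.3% of genes tested (42.7% higher, 16.6% lower). The medians there were 0.94, 0.58 and 0.27, and calls over all genes were 5229 higher and 2034 lower by plain totals and 3220 and 3261 by TMM factors. Bax, Bak1 and Bid lost their calls there with TMM factors, with DESeq2 and with the intron-length shift taken out. They also lost them with totals without mitochondrial and ribosomal genes, where Bcl2 lost its call too and Mcl1 passed as lower. Between spleen at 1 week and naive spleen 5 members passed, all higher (Bcl2a1b, Bcl2a1d, Bax, Bak1 and Pmaip1), against 48.5% of genes tested (19.5% higher, 29.0% lower). From 1 to 3 weeks in spleen 6 members passed, Bcl2 and Bcl2l11 higher and Bcl2a1b, Bcl2a1d, Bax and Pmaip1 lower, against 39.5% of genes tested (24.4% higher, 15.0% lower). TMM factors turned the split of all calls from 2386 higher and 3548 lower to 3151 and 2256 in the first of these, and from 2993 and 1842 to 1780 and 2716 in the second.

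**Figure D4:**
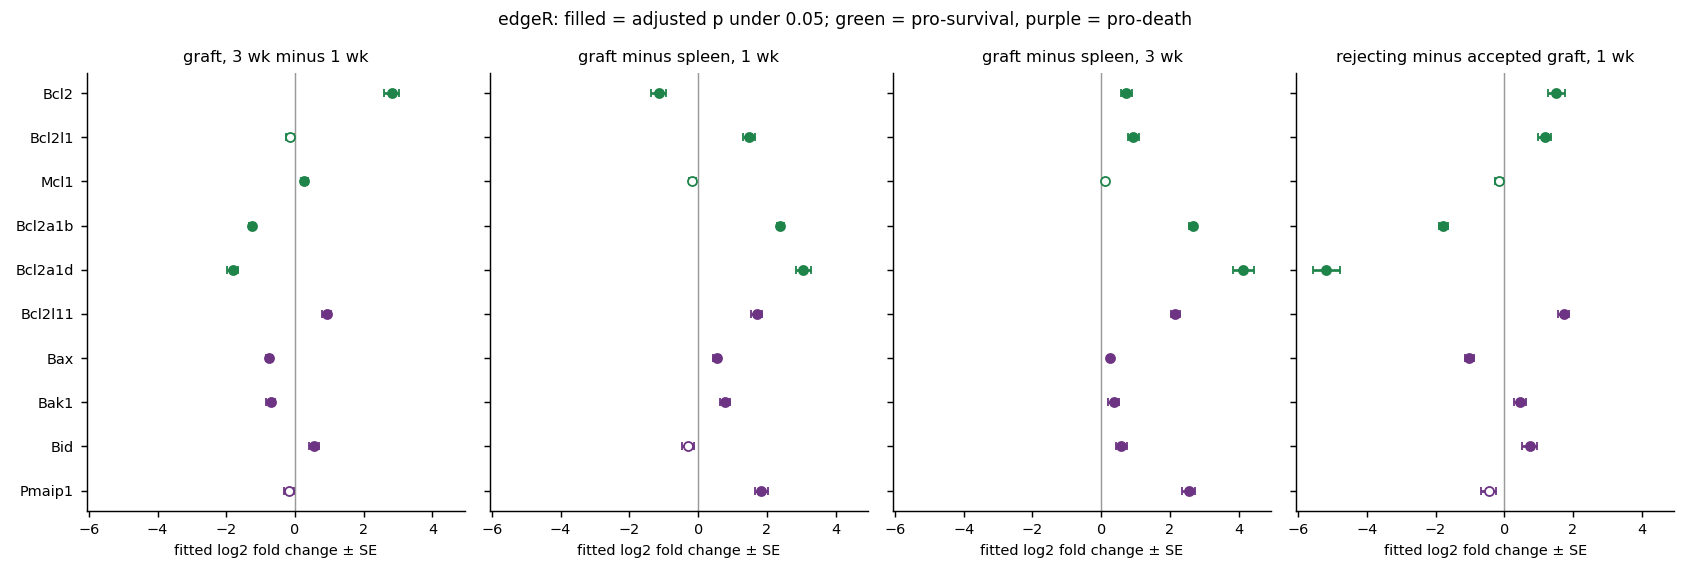
Fitted log2 fold change with SE (x axis) of the 10 members (y axis, green pro-survival, purple pro-death) in 4 comparisons, with filled points where the edgeR adjusted p was under 0.05. Bcl2 is at 2.82 between 3 and 1 weeks in the graft and at -1.14 between graft and spleen at 1 week, where Bcl2a1b is at 2.39.

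The balance was the summed CPM of the 5 pro-survival genes over that of the 5 pro-death genes. It is a description with no test, and genes with more counts weigh more in it. In the accepted graft at 1 week the ratio was 1.89, 2.12 and 1.66 in the 3 libraries, and at 3 weeks 3.32, 2.8, 2.76, 3 and 2.79 in the 5 libraries, with no overlap. Spleen stood at 2.77, 2.53 and 2.76 at 1 week and 4.31, 4.43, 4.09, 4.12 and 4.12 at 3 weeks, above the graft of the same week, and naive spleen at 3.59, 2.96, 3.89, 3.24 and 3.08. On the log2 scale the graft was 0.64 higher at 3 weeks than at 1 week, and it was lower than the spleen, with differences of -0.52 at 1 week and -0.53 at 3 weeks. The pro-death sums of the 2 graft times overlapped, at 434, 411 and 432 CPM and 412, 439, 456, 452 and 484 CPM, but the shares of Bax and Bcl2l11 in them did not. Bax took 49.8% ± 2.70 of this sum early and 27.8% ± 2.74 late, as mean and SD over the libraries, and Bcl2l11 took 32.2% ± 1.70 and 57.9% ± 3.36. The pro-survival sum rose from 819, 869 and 716 CPM to 1367, 1230.0, 1258, 1353 and 1350.3 CPM. Bcl2a1b and Bcl2a1d made up 38.5% ± 1.60 and 13.8% ± 1.90 of it at 1 week, and Bcl2 made up 64.1% ± 1.2 of it at 3 weeks. Without Bcl2 the difference between 3 and 1 weeks in the graft was -0.61, and as a mean of log2(CPM + 1) over genes, which gives each gene the same weight, it was 0.018. On that scale graft against spleen turned to 0.19 at 1 week and 0.45 at 3 weeks.

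**Figure D5:**
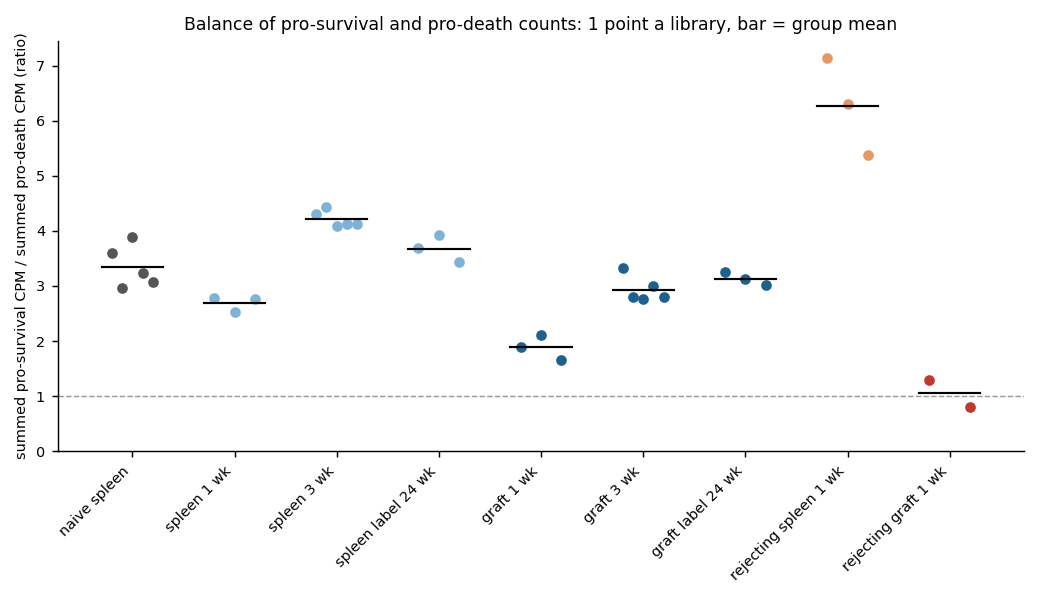
Summed CPM of the 5 pro-survival genes over summed CPM of the 5 pro-death genes (y axis, linear from 0) in the 9 groups (x axis), with 1 point for each library, a bar at the group mean and a dashed line at 1. The 3 accepted grafts of 1 week lie from 1.66 to 2.12, the 5 of 3 weeks from 2.76 to 3.32, and the 2 rejecting grafts at 0.81 and 1.3.

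Dividing cells made up a large part of the early graft. The summed level of the 5 dividing-cell markers was 1236 to 2423 CPM in the graft at 1 week and 72.2 to 88.0 CPM at 3 weeks. Within the graft at 1 week, cells with UMIs of at least 2 of these genes held less Bcl2 than cells with none, in 3 of 3 libraries, at 0.663 to 0.727 of the level. The mean was 98.3 ± 16.4 CPM in dividing and 141 ± 25.2 CPM in non-dividing cells (SD, n = 3), whereas non-dividing cells of the 3-week graft held 849 ± 55.1 CPM (SD, n = 5). Bcl2l11 and Mcl1 were also lower in dividing cells in 3 of 3 libraries, at 0.612 to 0.770 and 0.754 to 0.811, and Bak1 and Bcl2l1 were higher, at 1.18 to 1.57 and 1.18 to 1.48. The summed Bcl2a1 genes differed by less, at 0.981 to 1.03, and in the graft at 3 weeks, where only 210 cells counted as dividing, no order was read.

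Cells with a UMI of Pdcd1, the gene of the inhibitory receptor PD-1, were set beside cells without one in the same library. A UMI is more often seen in deeper cells, and its absence does not show that a cell lacks PD-1. The summed Bcl2a1 genes were higher in cells with a Pdcd1 UMI in 3 of 3 libraries at 1 week (ratio 1.15 to 1.33) and in 5 of 5 libraries at 3 weeks (1.07 to 1.26). Bcl2l11 was too, at 1.09 to 1.30 and 1.08 to 1.31. Bcl2 differed by less, with ratios of 0.893 to 1.04 at 1 week and 0.967 to 1.06 at 3 weeks, on both sides of 1.

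In rejecting grafts at 1 week the 2 libraries differed from each other. Bcl2 was at 530.5 and 152 CPM and Bcl2l11 at 554 and 360.1 CPM, Mcl1 at 264 and 174 CPM and Bak1 at 29.2 and 62.1 CPM. A UMI of the dividing list was found in 30.1% of CD8+ cells of the library with more Bcl2 and 77.9% of the other, and the part of division in this gap was not tested. In both libraries Bcl2l11 was above every accepted library, 3.33-fold above the accepted graft of 1 week (log2 1.73 ± 0.16, SE, adjusted p = 8.99e-12, and 0.97 with the intron-length shift taken out, adjusted p = 5.24e-06). Bcl2l1, at 61.0 and 37.2 CPM, was also above every other group (log2 1.17 ± 0.18, SE, adjusted p = 5.45e-07), but not past the threshold with that shift taken out (0.16, adjusted p = 0.476). Bax, at 99.5 and 110.1 CPM, was 2.02-fold below the accepted graft (adjusted p = 4.19e-09). Bcl2a1b alone differed by log2 -1.78 ± 0.13 (adjusted p = 1.07e-14) and Bcl2a1d by -5.18 ± 0.39 (adjusted p = 1.06e-13), with SE. The summed Bcl2a1 genes, at 112 and 108 CPM, were 3.84-fold below it (log2 -1.94 ± 0.13, SE, adjusted p = 2.88e-15). Strain differences in which reads could be assigned to a copy cannot be told apart from this difference.

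Bcl2 was 2.84-fold higher in rejecting than in accepted grafts (log2 1.51 ± 0.25, SE, adjusted p = 1.61e-06). The call was lost in 2 settings. It became 0.36 (adjusted p = 0.147) without the rejecting graft library of more Bcl2, and -0.42 (adjusted p = 0.147) with the intron-length shift of 1.90 taken out. Mcl1 differed by log2 -0.14 ± 0.12 (SE, adjusted p = 0.313), -0.81 with TMM factors (adjusted p = 3.34e-07) and 0.37 with the intron-length shift taken out (adjusted p = 0.0160), so that its direction depended on the processing. Bid, at 18.0 and 12.7 CPM, was higher by 0.74 ± 0.22 (adjusted p = 0.0045), a call lost without that same library (0.49) and, at 0.066 (adjusted p = 0.814), 0.11 (adjusted p = 0.722) and 0.21 (adjusted p = 0.446), with TMM factors, DESeq2 and the intron-length shift taken out. It was lost as well with totals without mitochondrial and ribosomal genes (0.47) and without cells with a UMI of the dividing list (0.65). Bak1 was higher by 0.46 ± 0.18 (adjusted p = 0.0269) although the groups overlapped, turned to -0.22 with TMM factors and without the other rejecting graft library, and was lost without the first or second accepted library (0.42 and 0.43). DESeq2 turned it to -0.18, and it was lost with totals without mitochondrial and ribosomal genes (0.19), without cells with a UMI of the dividing list (0.54), without cells with a Cd4, myeloid or B cell UMI (0.26) and in a fit of these 2 groups alone (0.45). Pmaip1, at 31.8 and 17.6 CPM, differed by -0.46 ± 0.23 (adjusted p = 0.0717), and passed as lower with TMM factors (-1.13), DESeq2 (-1.07), totals without mitochondrial and ribosomal genes (-0.72) and all cells of the matrix (-0.48), without the rejecting library of more Bcl2 (-0.91) or without accepted library 3 (-0.60). Mcl1 also passed as lower without that rejecting library (-0.47), with DESeq2 (-0.76), with totals without mitochondrial and ribosomal genes (-0.40) and without cells with a Cd4, myeloid or B cell UMI (-0.32). In all 8 of 10 members passed, 5 higher and 3 lower, against 66.3% of genes tested (52.8% higher, 13.5% lower). The medians were -0.14 for pro-survival, 0.46 for pro-death and 0.67 for all genes tested, and calls over all genes were 6467 higher and 1652 lower by plain totals and 3749 and 3706 by TMM factors. The balance was 1.3 and 0.808 in the 2 rejecting grafts, below every other library, and 0.87 lower on the log2 scale than in accepted grafts. The handling and stress genes summed to 416 to 958 CPM in rejecting and 1322 to 1817 CPM in accepted grafts, and mitochondrial genes took 1.38% to 1.39% and 3.67% to 4.48% of the UMIs. The part of RNA quality in these differences was not tested. Counts here compare 2 libraries with 3.

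Against rejecting spleen, 7 members passed the threshold in rejecting grafts, 6 higher and 1 lower, against 31.5% of genes tested (21.5% higher, 10.0% lower). Over all genes 2632 were higher and 1225 lower by plain totals and 1956 and 1581 by TMM factors. Bcl2l11 rose 4.76-fold from 109.5, 45.7 and 96.8 CPM in spleen (adjusted p = 6.38e-11) and Bcl2a1b 6.59-fold from 16.4, 6.52 and 12.1 CPM (adjusted p = 1.85e-11). Bcl2 was lower than its 1124, 685 and 762 CPM in spleen (log2 -1.37 ± 0.27, SE, adjusted p = 1.06e-04). With a library left out this Bcl2 difference lay between -2.53 and -0.73, a range wider than the SE. Bcl2l1 was higher by 1.37 ± 0.29 (adjusted p = 2.91e-04), Bax by 1.04 ± 0.17 (adjusted p = 1.17e-05), Bak1 by 1.24 ± 0.30 (adjusted p = 0.00138) and Pmaip1 by 1.57 ± 0.44 (adjusted p = 0.00588). Mcl1 differed by 0.01 ± 0.14 (adjusted p = 0.984) and Bid by 0.59 ± 0.37 (adjusted p = 0.244). Bcl2a1d, with no UMI in spleen and 14 in the grafts, did not pass (adjusted p = 0.111), and no fold is given. The call of Bak1 was lost without the rejecting graft library of less Bcl2 (0.56) and in a fit of these 2 groups alone, at 1.24 (adjusted p = 0.0502), and that of Pmaip1 without the first rejecting spleen library (1.48) or the graft library of more Bcl2 (1.12). Bid passed as higher without spleen library 3 (1.82). With a replicate block by tag number, which the data did not show to pair these libraries, the calls of Bcl2l1, at 0.88 (adjusted p = 0.26), Bax, at 0.83 (adjusted p = 0.158), and Pmaip1, at 1.24 (adjusted p = 0.255), were lost. The 4 neutrophil markers summed to 29.0 to 1037 CPM in rejecting spleen and 6.52 to 23.1 CPM in rejecting graft. In the same order the myeloid markers summed to 104 to 196 and 348 to 375 CPM. The B cell markers summed to 65.2 to 272 and 3.45 to 8.72 CPM, and the dividing-cell markers to 463 to 802 and 1008 to 3426 CPM. The part of such RNA, or of division, in these values was not tested. Graft-over-spleen differences of rejecting and accepted mice at 1 week were tested as an interaction, where 0 of 10 members passed in edgeR, against 4.56% of genes tested (2.88% higher, 1.67% lower). At an unadjusted p under 0.05 there were 3 (Bax, Bcl2l11 and Bid), and DESeq2 found 0 of 10 at either level. The interaction for Bcl2 was log2 -0.23 ± 0.34 and that for Bcl2a1b 0.33 ± 0.29 (SE, adjusted p = 0.782 and 0.638). The others were -0.11 ± 0.35 (adjusted p = 0.923) for Bcl2l1, 0.18 ± 0.17 (adjusted p = 0.635) for Mcl1, 0.55 ± 0.26 (adjusted p = 0.257) for Bcl2l11, 0.51 ± 0.20 (adjusted p = 0.159) for Bax, 0.46 ± 0.35 (adjusted p = 0.53) for Bak1, 0.89 ± 0.40 (adjusted p = 0.223) for Bid and -0.27 ± 0.54 (adjusted p = 0.855) for Pmaip1, and for Bcl2a1d, at 0 in rejecting spleen, only the adjusted p is given (0.747). Among these 10 tests leaving out 1 library made a call for 2 genes. For Bcl2 it was -1.39 (adjusted p = 9.47e-04) without the rejecting graft library of more Bcl2. For Bid it was 2.12 (adjusted p = 0.017) without rejecting spleen library 3.

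At 24 weeks 9 of 10 members, all but Bid, passed as lower in the libraries labelled graft than in the graft at 3 weeks, against 65.1% of genes tested (13.6% higher, 51.5% lower). Bcl2l11 was at 23.0, 28.1 and 32.5 CPM (log2 -3.21 ± 0.17, SE, adjusted p = 1.69e-18) and Pmaip1 at 3.14, 3.05 and 4.50 CPM (log2 -3.01 ± 0.24, SE, adjusted p = 4.32e-13). Bcl2 fell by 1.87 ± 0.21 (adjusted p = 1.16e-09), Bcl2l1 by 1.76 ± 0.20 (adjusted p = 1.56e-09), Bcl2a1b by 2.31 ± 0.11 (adjusted p = 5.86e-19) and Bcl2a1d by 3.59 ± 0.32 (adjusted p = 1.07e-11) on the log2 scale. Bid differed by -0.25 ± 0.17 (adjusted p = 0.197). It passed as lower with all cells of the matrix, at -0.48 (adjusted p = 0.00649). Mcl1, Bax and Bak1 had differences of -0.25 ± 0.10 (adjusted p = 0.0233), -0.24 ± 0.09 (adjusted p = 0.0236) and -0.48 ± 0.17 (adjusted p = 0.0147), all lost without 24-week library 3 (-0.24, -0.16 and -0.46). The calls of Mcl1 and Bak1 were also lost without library 1 of these (-0.17 and -0.35), that of Mcl1 without 3-week library 5 (-0.22) and that of Bax without 3-week library 4 (-0.22). The call of Mcl1 was lost with all cells of the matrix (-0.11), thinned cells (-0.19) and the intron-length shift taken out (-0.13), and that of Bak1 with that shift taken out (-0.15), DESeq2 (-0.018), totals without mitochondrial and ribosomal genes (-0.036) and without cells with a Cd4, myeloid or B cell UMI (-0.37). These smaller falls of Mcl1, Bax and Bak1 turned to 0.24, 0.25 and 0.015 with TMM factors (adjusted p = 0.022, 0.0151 and 0.951), and the calls over all genes from 1666 higher and 6307 lower to 3463 and 3362. In the libraries labelled spleen Bcl2a1b was at 252, 262 and 230.4 CPM, Bcl2l11 at 157, 122 and 174 CPM and Pmaip1 at 55.6, 34.3 and 46.1 CPM, all above every spleen library of 1 and 3 weeks. Between the labels 8 members passed, Bid higher and 7 lower in the graft label, against 45.6% of genes tested (12.8% higher, 32.8% lower). Bcl2a1b differed by log2 -3.25 ± 0.12 (adjusted p = 7.58e-22), Bcl2a1d by -4.55 ± 0.33 (adjusted p = 8.84e-14), Pmaip1 by -3.64 ± 0.25 (adjusted p = 1.92e-14) and Bcl2l11 by -2.43 ± 0.17 (adjusted p = 3.99e-14), with SE. For Bcl2 it was -1.28 ± 0.22 (adjusted p = 1.11e-05), for Bcl2l1 -1.22 ± 0.24 (adjusted p = 5.29e-05), for Mcl1 -0.38 ± 0.11 (adjusted p = 0.00326) and for Bid 0.76 ± 0.22 (adjusted p = 0.005), and Bax and Bak1 differed by -0.09 ± 0.11 (adjusted p = 0.533) and 0.25 ± 0.21 (adjusted p = 0.348). The call of Mcl1 was lost with TMM factors, at -0.12 (adjusted p = 0.349), DESeq2, at -0.18 (adjusted p = 0.145), totals without mitochondrial and ribosomal genes, at -0.024 (adjusted p = 0.879), and thinned cells, at -0.35 (adjusted p = 0.0522). That of Bid was lost with thinned cells, at 0.29 (adjusted p = 0.708), and without cells with a Cd4, myeloid or B cell UMI, at 0.62 (adjusted p = 0.107). Bak1 passed as higher in the graft label with TMM factors (0.52) and with totals without mitochondrial and ribosomal genes (0.62), where Bax did too (0.27). By plain totals 1570 genes were higher and 4019 lower, and by TMM factors 2642 and 2582. The 8 handling and stress genes summed to 3080 to 3739 CPM in the spleen label, 1590 to 2116 CPM in the graft label and 3123 to 3725 CPM in the graft at 3 weeks. In the same order the myeloid markers summed to 253 to 270, 68.2 to 77.8 and 477 to 854 CPM. The B cell markers summed to 13.9 to 42.8, 78.4 to 209 and 11.6 to 26.4 CPM. The part of such RNA in these differences was not tested. The 4 naive T cell markers summed to 236 to 255 CPM in the spleen label and 1877 to 1950 CPM in the graft label, near the 1570 to 1825 CPM of naive spleen. Which tissue the labels mark was not tested.

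Other genes of the pathway were read from fixed lists. Of 16 other Bcl-2 family genes, 11 were tested, and between 3 and 1 weeks in the graft 5 were higher and 1 lower, beside 50.1% and 20.3% of all genes tested. Bmf, a BH3-only gene, rose from 1.52 to 3.26 CPM (log2 1.11 ± 0.36, SE, adjusted p = 0.0074) and Bad, another, fell from 28.7 to 15.0 CPM (-0.94 ± 0.13, adjusted p = 1.20e-07). Between graft and spleen at 1 week 3 of these 11 were higher in the graft and 1 lower, beside 29.2% and 20.3% of all genes tested. At 3 weeks 7 were higher and 1 lower, beside 42.7% and 16.6%. The lower gene at both times was Bbc3, the gene of PUMA, opposite to Bcl2l11 and Pmaip1. It stood at 6.81 against 28.1 CPM at 1 week (-2.06 ± 0.23, adjusted p = 2.50e-09) and at 6.61 against 33.1 CPM at 3 weeks (-2.32 ± 0.20, adjusted p = 2.17e-12). Of 19 caspase, apoptosome and inhibitor genes, 10 were higher and 3 lower in graft than in spleen at 1 week, beside 29.2% and 20.3% of all genes tested. At 3 weeks 7 were higher and 2 lower, beside 42.7% and 16.6%, and between 3 and 1 weeks in the graft 10 were higher and 6 lower, beside 50.1% and 20.3%. Apaf1, the scaffold of the apoptosome, was at 20.3 CPM in graft against 10.3 CPM in spleen at 1 week (0.95 ± 0.14, adjusted p = 6.72e-07).

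Among 11 death receptor genes, 6 were higher and 3 lower in the graft at 3 weeks than at 1 week, beside the same 50.1% and 20.3%. Fasl, the ligand of FAS, rose from 46.8 to 184 CPM (1.99 ± 0.17, SE, adjusted p = 2.91e-12) and Tnfsf10, the gene of TRAIL, from 48.8 to 196 CPM (2.02 ± 0.12, adjusted p = 1.83e-16), while Fas fell from 8.54 to 4.83 CPM (-0.82 ± 0.20, adjusted p = 4.34e-04). Of 21 genes upstream of the family, 14 were higher and 5 lower at 3 weeks, again beside 50.1% and 20.3% of all genes tested. Il2ra, a chain of the high-affinity IL-2 receptor, fell from 35.8 to 5.09 CPM (-2.82 ± 0.21, adjusted p = 1.01e-13) and Rel, an NF-kappaB subunit, from 161 to 82.3 CPM (-0.97 ± 0.13, adjusted p = 5.04e-08). Foxo3, a transcription factor known to act on Bcl2l11, rose from 11 to 42.4 CPM (1.96 ± 0.13, adjusted p = 4.52e-15). Il7r, the receptor chain for a survival cytokine of resting T cells, was lower in graft than in spleen at 1 week, at 85.3 against 342 CPM (-2.0 ± 0.22, adjusted p = 2.30e-09), and at 3 weeks, at 215 against 583 CPM (-1.44 ± 0.17, adjusted p = 3.57e-09). Medians of the 4 lists between 3 and 1 weeks lay between 0.39 and 0.58, beside 0.40 over all genes tested. In rejecting against accepted grafts 4 of the 11 other family genes were higher and 1 lower, of the caspase list 10 and 4, of the death receptor list 5 and 1, and of the upstream list 11 and 2, beside 52.8% of all genes tested higher and 13.5% lower. Bcl2l12 was lower there (-1.23 ± 0.23, adjusted p = 2.33e-05), and Apaf1 was higher, at 67.7 against 20.3 CPM (1.73 ± 0.14, adjusted p = 3.74e-13). Stat5b, which signals from IL-2 family receptors, was higher too, at 154 against 34.3 CPM (2.16 ± 0.13, adjusted p = 3.99e-17). Values and counts of pathway genes are given with no intron-length shift taken out. In the group with the longest introns that shift was 1.90 log2 between rejecting and accepted grafts and 0.78 between 3 and 1 weeks. Its part in these genes was not tested.

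Genes whose pattern over the 9 group means was most like that of a member were found among 7322 genes with at least 20 CPM in a group, by Pearson's r of log2(CPM + 1). With 9 points that share libraries and depth this is a description. For Bcl2 they were Actr8, Pou6f1 and Rlim (r = 0.944, 0.943 and 0.937), for Bcl2l11 Itgav, AU020206 and Kctd9 (0.994, 0.990 and 0.989), and for Bcl2a1b Acadl, Tnfrsf18 and D8Ertd738e (0.993, 0.983 and 0.981). The closest were Atp2a2 for Bcl2l1 (0.991), Hif1an for Mcl1 (0.979), Srp14 for Bcl2a1d (0.985), Nxt1 for Bax (0.991), Cdca2 for Bak1 (0.975) and Chst2 for Pmaip1 (0.991), and Bid had the least close match, Miip (0.882). In the CD45+ matrices of naive spleen, where CD8+ cells can be set beside others of the same 5 libraries, Bcl2 was lower in cells with myeloid markers (0.220 to 0.557 of the CD8+ level) and with B cell markers (0.532 to 0.748) in 5 of 5 libraries. Mcl1 was higher in both, at 1.94 to 2.75 and 1.89 to 2.32.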

How the data were processed

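The authors deposited UMI counts per gene and cell as sparse matrices of CD8+ T cells and, for some tissues, of all CD45+ cells, made with Cell Ranger on the mm10 genome per the submitters' processing notes (versions not given in the sources used here). They called CD8+ T cells from clusters. Dead cells had been removed by the sort, so members are read in viable cells. How doublets were treated in these matrices is not given in the sources used here, and no caller was run. Cells with a Cd4, myeloid or B cell UMI were left out in an alternative. It took out 24.4% to 62.9% of the CD8+ cells of a library. A single UMI is more often seen in deeper cells.

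Here cells with a UMI of Cd8a or Cd8b1 were kept and counts summed by library tag. One edgeR quasi-likelihood fit (version 4.0.16, R 4.3.3) took all 9 groups, plain library totals and the filterByExpr filter, with Benjamini-Hochberg adjustment over 12247 genes and a threshold of 0.05. Each SE of a fitted difference is its absolute log2 fold change over the square root of the test's F value. It is thus an approximation, and it rests on a spread estimated over all groups. Alternatives were DESeq2 1.42.0, TMM factors, no low-count filter, totals without mitochondrial and ribosomal genes, all cells of the matrix, cells thinned to 1000 UMIs, other marker exclusions, intron-length shifts, and leaving out each library. Summed Bcl2a1 genes and a fit without the 24-week libraries were added after seeing the data. The edgeR script was tested on simulated data. Python 3.11.15, numpy 2.4.6 and pandas 2.3.3 were used. Symbols were matched to GENCODE M21 for 16012 of 16243 genes (98.6%). Floors cover counting error only.

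Every member was described in each comparison. Pathway genes were named from 4 fixed lists, up to 3 in each direction, by size of change among genes past the threshold. Members and lists were chosen by function, with earlier results of these data known.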

Additional observations from a re-analysis of the deposited data

Results flagged for a closer look

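Among 30 sets of 5 libraries, each 1 member in 1 group, 3 held a library set far apart from the other 4. About 1 in 20 such sets is flagged by chance. In accepted spleen at 3 weeks 1 library held 567 CPM of Bcl2, with the nearest at 507 CPM. In the accepted graft at 3 weeks 1 library held 50.9 CPM of Bcl2a1d, with the nearest at 27.7 CPM, and another held 26.4 CPM of Pmaip1, below the nearest at 29.7 CPM.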

How the results depend on the processing

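Of 1218 values of single members under alternatives other than leaving out a library, 1106 kept their side of the threshold and were not counted as turned. The same held for 715 of 750 values with a library left out. Direction was compared only where the main or the alternative value passed the threshold. Turns between values that both failed it are not counted. Most that moved were small differences of Mcl1, Bax, Bak1 and Bid. Among the values compared in this way directions turned as follows, and the cause was not tested. With TMM factors they turned to -0.089 for Mcl1 between 3 and 1 weeks in the graft, to 0.24, 0.25 and 0.015 for Mcl1, Bax and Bak1 between 24 weeks by label and 3 weeks, to -0.0036 for Bax between graft and spleen at 3 weeks and to -0.22 for Bak1 between rejecting and accepted grafts. With DESeq2 they turned to -0.083 for Mcl1 between 3 and 1 weeks, to 0.21 and 0.22 for Mcl1 and Bax at 24 weeks, and to -0.18 for Bak1 in rejecting grafts. With totals without mitochondrial and ribosomal genes they turned to 0.19 and 0.20 for Mcl1 and Bax at 24 weeks, to -0.26 and -0.093 for Mcl1 and Bax between graft and spleen at 3 weeks, and to 0.27 for Bax between the 24-week labels. With the intron-length shift taken out they turned to 0.028 and -0.020 for Bax at 24 weeks and between graft and spleen at 3 weeks, and to -0.42 and 0.37 for Bcl2 and Mcl1 in rejecting against accepted grafts. With cells thinned to 1000 UMIs Pmaip1 turned to 0.17 between 3 and 1 weeks in spleen. Bak1 in rejecting grafts lay between -0.22 and 0.87 with a library left out.

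Counts of members called stayed within 1.5 times under the alternatives run, except 3 in place of 5 between spleen at 1 week and naive spleen with cells thinned to 1000 UMIs, and 4 in place of 7 between rejecting graft and spleen with a replicate block by tag number, in which 9 members were tested. Direction is not part of these counts, and a member called the other way still counts. Mcl1 and Bax with TMM factors between 24 weeks by label and 3 weeks are such members. With a library left out the counts lay between 8 and 8 (3 against 1 week), 6 and 9 (24 weeks by label against 3 weeks), 4 and 5 (spleen 1 week against naive), 5 and 6 (spleen 3 against 1 week), 8 and 8, 8 and 9, and 8 and 8 (graft against spleen at 1, 3 and 24 weeks), 7 and 9 (rejecting against accepted), 6 and 8 (rejecting graft against spleen) and 0 and 1 (interaction). The tag numbers were not shown to pair libraries. Deviations of libraries with the same number correlated at 0.04 to 0.22 at 1 week, 0.09 to 0.51 at 3 weeks and -0.00 to 0.28 at 24 weeks. Of these pairs 1 of 3, 1 of 5 and 2 of 3 correlated best with their own number. In rejecting mice the correlation was 0.02. With only 2 pairs, each side centred on its mean, the best match is fixed by the sign of that value and was not read. With the replicate block 8, 9 and 8 members were called between graft and spleen at 1, 3 and 24 weeks, as without it.

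The balance difference between 3 and 1 weeks in the graft, 0.64, was 0.80 without Mcl1, -0.61 without Bcl2 and 0.018 as a mean of log2(CPM + 1), and 0.55 to 0.73 with a library left out. Graft against spleen at 1 week, -0.52, was -0.19 without Mcl1, 0.058 without Bcl2 and 0.19 as a mean of logs, and -0.60 to -0.43 with a library left out. At 3 weeks, -0.53, it was -0.39 without cells holding a Cd4, myeloid or B cell UMI, -0.30 without Mcl1 and 0.45 as a mean of logs, and -0.57 to -0.50 with a library left out. Rejecting against accepted, -0.87, was -1.53 without Bcl2, and -1.22 and -0.53 without either rejecting graft library, the ends of its range.

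Depth limited the low members. Bcl2l1, Bid and Pmaip1 lay under 20 CPM in most spleen libraries, and the rejecting groups rest on 2 and 3 libraries. CPM is a share of counted mRNA, so a change of total mRNA per cell moves every value, and less mRNA of a gene per cell cannot be told apart from fewer cells holding it in sums. Long-intron genes, Bcl2 among them, moved as a class between groups.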
